A study of Mus musculus with 18 samples.

Results

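The response of mouse fat cells to lipopolysaccharide (LPS) was compared between cells carrying a short hairpin RNA that targets Irf3 and cells carrying one that targets luciferase. The comparison used 12 of the 18 libraries of the series, chosen by their labels: shLuc, shLuc+LPS, shIrf3 and shIrf3+LPS, with 3 libraries in each group. All 12 came from differentiated 3T3-L1 adipocytes at passage 15. 3T3-L1 is an established mouse fibroblast line that turns into fat cells in culture, and cells that did not differentiate may remain among them. Mature cells received the hairpin by lentivirus for 6 days. The shIrf3+LPS cells were then given LPS for a further 6 days, with LPS renewed every other day. The labels do not give the duration for shLuc+LPS, so an unequal duration of LPS, which would enter the interaction itself, cannot be told apart from an effect of the hairpin. They also do not say whether cells without LPS stayed in culture as long, so an effect of LPS cannot be told apart from one of a longer culture. They describe 1 hairpin per target, so the loss of Irf3 and any other effect of that hairpin cannot be told apart either. Whether the 3 libraries of a group are separate cultures is not labelled. The p-values therefore rest on the spread among the deposited libraries, part or all of which may be technical.

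LPS is a cell wall component of Gram-negative bacteria that binds Toll-like receptor 4. The receptor signals through the adaptor MyD88, which leads to NF-kappaB and inflammatory cytokines, and through the adaptor TRIF, which activates the kinase TBK1 and the transcription factor IRF3. Activated IRF3 enters the nucleus and turns on interferon beta and antiviral genes. Adipocytes carry this receptor and answer LPS with cytokines, chemokines and acute phase proteins. A gene that needs IRF3 for its answer to LPS would change less with LPS when IRF3 is lowered. The quantity for this is the interaction: the log2 LPS response in shIrf3 cells minus the log2 LPS response in shLuc cells. A positive interaction means that the LPS response was more positive with the Irf3 hairpin, and a negative one that it was more negative.

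The deposited table lists 27473 gene models by UCSC known-gene identifier on mouse build mm9 and holds no gene symbols. Of these identifiers, 0 occurred in the gene name tables used here. Gene models are therefore given by identifier and position, the level of Irf3 itself is not reported here, and neither the knockdown nor the adipocyte identity was checked by marker genes. Total counts ran from 23749441 to 34368259 over the 12 libraries. Gene models of chromosome M, the mitochondrial genome, held 2.88% to 14.2% of the counts in the shLuc libraries and 4.21% to 7.17% in the other 9, and were left out before scaling. The shLuc libraries also differed most among themselves. The median standard deviation of log2 CPM (counts scaled to the library total) between replicates was 0.185 in shLuc, 0.0854 in shLuc+LPS, 0.0822 in shIrf3 and 0.0973 in shIrf3+LPS.

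**Figure D1:**
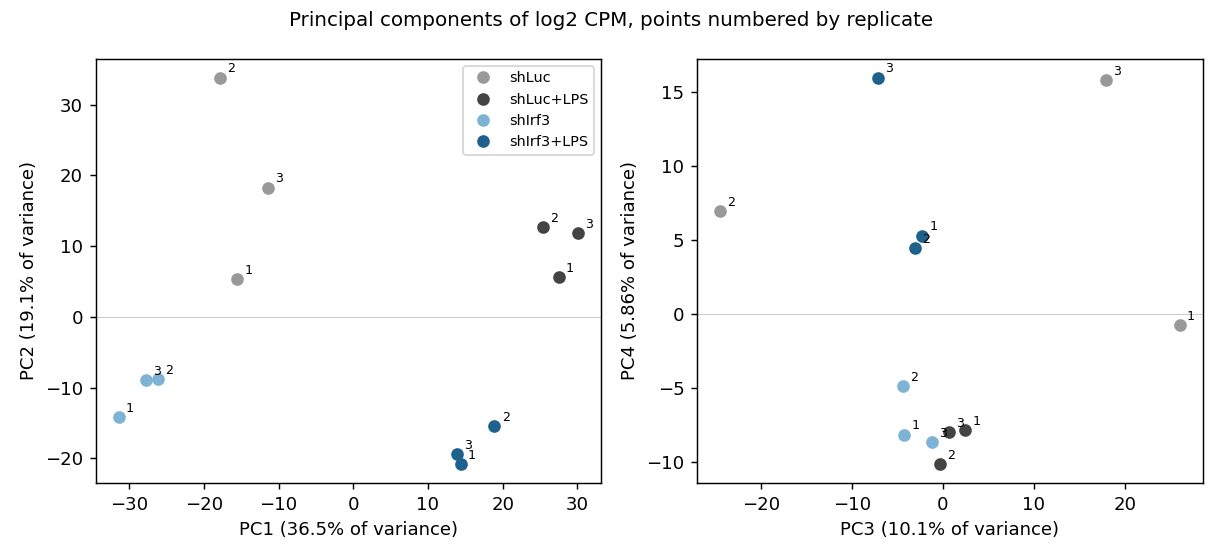
Principal components of log2 CPM for the 12 libraries, with each point a library, numbered by replicate and coloured by group, and each axis giving its share of the variance. The first component (36.5%) runs from libraries without LPS on the left to libraries with LPS on the right, the second (19.1%) has shLuc and shLuc+LPS above 0 and both shIrf3 groups below, and the third (10.1%) spreads the 3 shLuc libraries from -24.5 to 26.0.

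In the plot of principal components, LPS and the hairpin each separated the libraries without overlap. Along the first component the 6 libraries without LPS lay between -31.4 and -11.4, and the 6 with LPS between 13.9 and 30.1. Along the second, the shLuc and shLuc+LPS libraries lay between 5.31 and 33.8 and the shIrf3 and shIrf3+LPS libraries between -20.8 and -8.80. The third component held mainly the differences between the shLuc libraries, with replicate 2 at -24.5 and replicates 1 and 3 at 26.0 and 17.97. The fourth, with 5.86% of the variance, was the component on which the groups were ordered as an interaction would order them. There shIrf3+LPS lay between 4.46 and 16.0 and shIrf3 between -8.66 and -4.89, while shLuc+LPS lay between -10.1 and -7.86 and shLuc between -0.747 and 15.8.

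LPS raised and lowered many gene models with either hairpin, and a difference between the responses was called for a single gene model. Of 15036 gene models tested with edgeR's quasi-likelihood test, 0 had a more positive LPS response with the Irf3 hairpin (0% of those tested) and 1 had a more negative one (0.00665%), at a Benjamini-Hochberg adjusted p under 0.05. At an unadjusted p under 0.05 there were 493 with a positive and 386 with a negative interaction, together 5.85% of those tested. In the same fit, LPS raised 670 gene models (4.46%) and lowered 660 (4.39%) in shLuc cells. In shIrf3 cells it raised 600 (3.99%) and lowered 699 (4.65%). With library totals as the only scaling, 61.3% of the LPS calls in shLuc and 61.1% of those in shIrf3 were higher, against 50.4% and 46.2% with the scaling used here. DESeq2 called 10 gene models with a positive and 5 with a negative interaction, while limma-voom with weights per group and limma-trend called 0 each. In simulated data over 15036 gene models with 200 changed, the edgeR step called 46.3% of the interactions set at 1.5-fold, 77.6% of those set at 2-fold and 90.9% of those set at 4-fold. The simulation gave every group the same spread, whereas the shLuc libraries spread more than the others here. Many changed gene models also make the adjusted threshold easier to pass. These shares therefore do not say how many interactions were missed in the real libraries.

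Leaving out single shLuc libraries moved these counts. With shLuc replicate 1 left out, 5 positive and 10 negative interactions were called. With shLuc replicate 2 left out the numbers were 12 and 3, and with shLuc replicate 3 left out 0 and 0. Without any one of the other 9 libraries the negative call was lost, and 1 positive call was made without shIrf3 replicate 2. Without both shLuc replicates 1 and 2, an alternative chosen after seeing the data, 28 positive and 44 negative interactions were called. That fit takes shLuc from a single library, which is assumed to vary like the other groups. Of the 15 gene models that DESeq2 called, 6 were among the 15 called by edgeR without shLuc replicate 1 and 3 among the 15 without shLuc replicate 2.

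**Figure D2:**
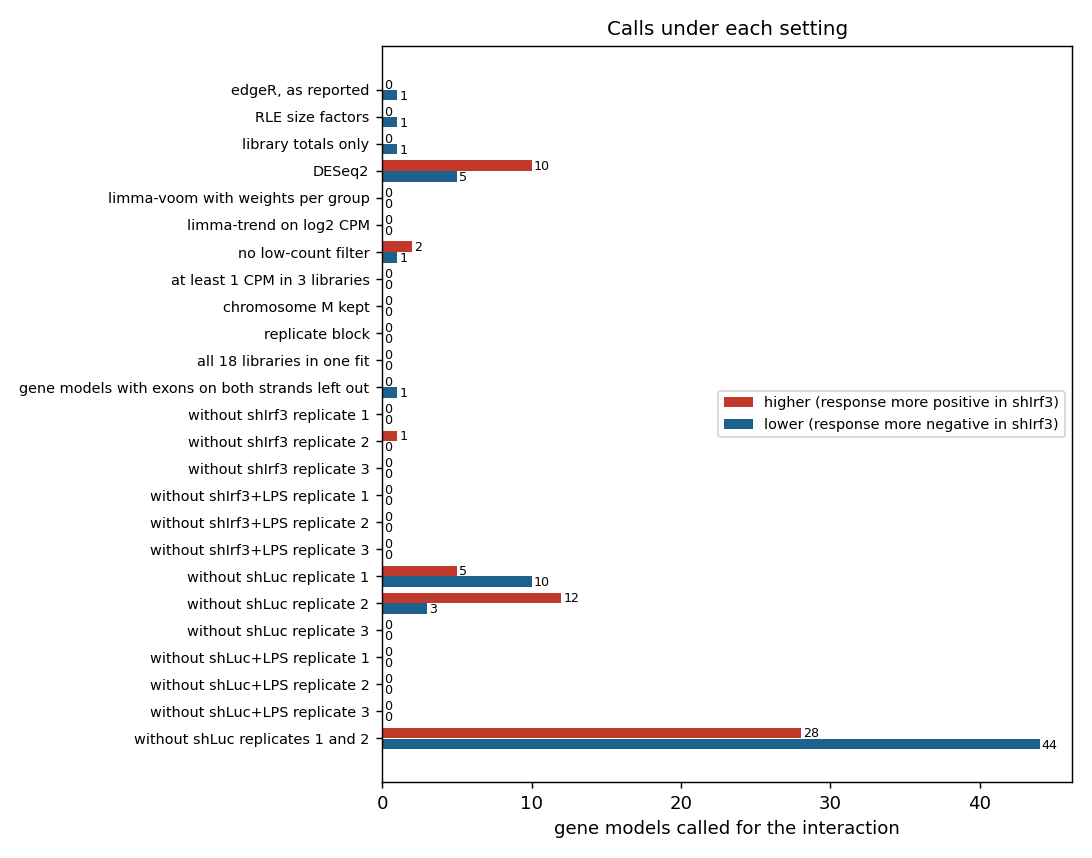
Number of gene models called for the interaction (x axis, bars from 0) under each setting (y axis), with positive interactions in red and negative ones in blue. Most settings have 0 or 1 call in each direction, and the longest bars, 28 and 44, belong to the fit without shLuc replicates 1 and 2.

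The single called gene model, uc008jfl.1, was raised by LPS with either hairpin and stood higher in shIrf3 than in shLuc cells before LPS. It has 6 exons on the minus strand of chromosome 2 (32240157 to 32243259, mm9) and an exon length of 853 bases. In shLuc cells it had 0.326, 0.629 and 0.367 CPM in replicates 1 to 3, from 9, 17 and 9 counts. With LPS these cells had 175.5, 154.6 and 158.8 CPM. In shIrf3 cells it had 1.69, 1.29 and 1.25 CPM, from 38, 37 and 31 counts, and with LPS 154.0, 153.9 and 134.2 CPM. All 3 shIrf3 libraries without LPS were above all 3 shLuc libraries without LPS, and all 3 shIrf3+LPS libraries were below all 3 shLuc+LPS libraries, by as little as 153.96 against 154.6 CPM.

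On the log2 scale the LPS response of uc008jfl.1 was 8.51 ± 0.15 (SE) in shLuc, a 365-fold rise, and 6.71 ± 0.13 in shIrf3, a 105-fold rise. The interaction was -1.80 ± 0.26 (SE, edgeR adjusted p = 0.0439), so the fold rise with the Irf3 hairpin was 0.288 times that with the luciferase hairpin (95% interval 0.198 to 0.419). Its parts were unequal. Without LPS the gene model was 3.14-fold higher in shIrf3 than in shLuc (edgeR adjusted p = 0.000732), and with LPS it was 0.905-fold (edgeR adjusted p = 0.338). On the CPM scale the rise was 162.5 ± 6.38 in shLuc and 146.0 ± 6.57 in shIrf3, a difference of -16.6 ± 9.16 CPM (SE, n = 3 per group). The call ended without any one of 10 of the 12 libraries, at interactions from -1.87 to -1.63 and edgeR adjusted p from 0.0571 to 0.249, and held without shLuc replicate 1 or 2. It also ended with limma-voom (interaction -1.81, limma-voom adjusted p = 0.841). Over all 24 alternatives the interaction kept its sign and lay between -2.15 and -1.59. The alternatives refit the libraries that uc008jfl.1 was picked from, so the kept sign is a description.

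Since the rule for naming gene models gave only uc008jfl.1, the 3 described next were chosen after their values were seen, as those with the smallest p and a mean of at least 5 CPM in some group. None of them passed the test, and their values are a description. The gene model uc009oco.1 lies on the plus strand of chromosome 9 (7445822 to 7455974, 10 exons). It had 16.1, 19.3 and 16.2 CPM in shLuc and 56.9, 52.5 and 64.8 CPM in shLuc+LPS. In shIrf3 it had 14.5, 13.6 and 14.1 CPM, and in shIrf3+LPS 76.3, 78.5 and 82.7 CPM. Every shIrf3+LPS library stood above every shLuc+LPS library, and every shIrf3 library below every shLuc library. LPS raised uc009oco.1 3.37-fold in shLuc and 5.62-fold in shIrf3, an interaction of 0.74 with a 95% interval from 0.47 to 1.002 (edgeR adjusted p = 0.176).

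The gene model uc009abn.2 on chromosome 5 (137537376 to 137548142, minus strand, 9 exons) fell with LPS in shLuc cells. It had 51.9, 38.3 and 40.3 CPM in shLuc and 23.8, 23.1 and 23.1 CPM in shLuc+LPS, a log2 LPS response of -0.90 ± 0.11 (SE, edgeR adjusted p = 3.44e-05). In shIrf3 it had 28.6, 23.9 and 25.4 CPM and in shIrf3+LPS 23.3, 23.1 and 27.6 CPM, a log2 LPS response of -0.075 ± 0.11. The shLuc libraries stood above all 9 others. Of the other groups, shIrf3+LPS overlapped both shLuc+LPS and shIrf3, and the shIrf3 libraries stood just above those of shLuc+LPS. The interaction was 0.82 with a 95% interval from 0.50 to 1.15 (edgeR adjusted p = 0.340).

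The gene model uc009mgm.2 on chromosome 8 (75168242 to 75238645, plus strand, 20 exons) stood apart in a different group. Its shIrf3 libraries had 7.78, 5.57 and 6.47 CPM, above all 9 others. It had 1.77, 2.03 and 2.33 CPM in shLuc, 2.52, 1.86 and 2.74 CPM in shLuc+LPS and 3.32, 2.97 and 2.92 CPM in shIrf3+LPS. LPS lowered it in shIrf3 cells (log2 -1.09 ± 0.17, edgeR adjusted p = 0.000492), and its log2 LPS response in shLuc cells was 0.22 ± 0.19 (edgeR adjusted p = 0.604). The interaction was -1.31, with a 95% interval from -1.85 to -0.77 (edgeR adjusted p = 0.385).

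**Figure D3:**
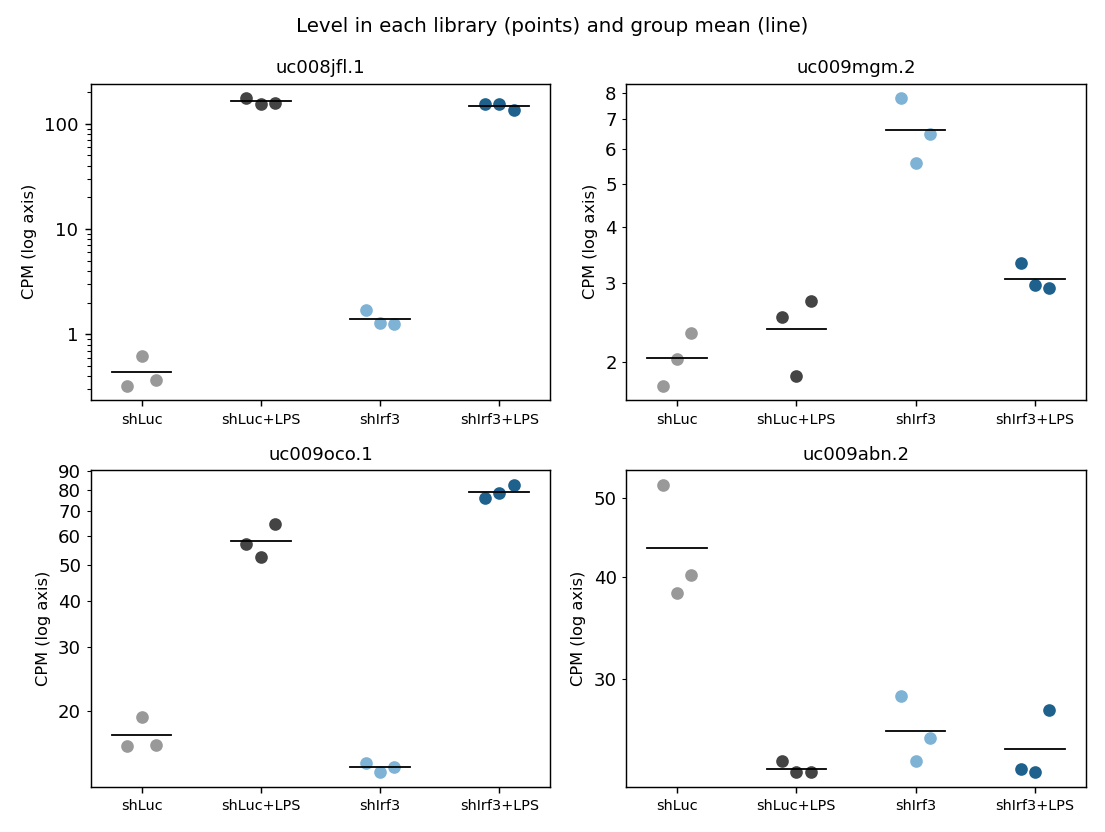
Level in CPM (log y axis, with its own range in each panel) of the 4 gene models in the 12 libraries, with a point for each library and a line at each group mean. In uc008jfl.1 and uc009mgm.2 the shIrf3 libraries without LPS stood above the shLuc libraries without LPS, and in uc009abn.2 and uc009oco.1 they stood below. With LPS the hairpins overlap in uc009abn.2 only, with shIrf3+LPS below shLuc+LPS in uc008jfl.1 and above it in uc009mgm.2 and uc009oco.1.

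In 3 of these 4 gene models the hairpins differed without LPS and came closer with LPS. The 4 were picked for their interaction, of which the difference without LPS is a part, so this is a description. Over all gene models tested, 827 were higher (5.5%) and 537 lower (3.57%) in shIrf3 than in shLuc without LPS, and 735 higher (4.89%) and 526 lower (3.5%) with LPS. The log2 difference between shIrf3 and shLuc without LPS was 1.65 for uc008jfl.1, 1.69 for uc009mgm.2 and -0.75 for uc009abn.2, each called by edgeR (adjusted p from 6.31e-05 to 0.000732). With LPS it was -0.14, 0.38 and 0.077, none of them called. For uc009oco.1 the order was the other way round, with -0.29 without LPS (edgeR adjusted p = 0.0647) and 0.45 with LPS (edgeR adjusted p = 0.00344). The 9 library-by-library LPS differences on log2 CPM in shIrf3 did not overlap the 9 in shLuc for any of the 4 gene models. The same held for 174 gene models in the positive direction (1.16% of those tested) and for 293 in the negative direction (1.95%).

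The libraries labelled as overexpressing the construct Irf3_2D (2D) and their green fluorescent protein control (EGFP) share no library with these groups and hold no LPS. There uc008jfl.1 had 1.10, 2.15 and 1.22 CPM in 2D and 0.568, 0.409 and 0.578 CPM in EGFP. These levels are low, and the difference did not pass the test (2.83-fold higher in 2D, edgeR adjusted p = 0.0927). In that comparison 113 of 13924 gene models were higher (0.812%) and 88 lower (0.632%). The gene model uc009mgm.2 had 1.42, 0.881 and 1.26 CPM in 2D and 1.99, 1.91 and 1.87 CPM in EGFP (edgeR adjusted p = 0.303). For uc009oco.1 and uc009abn.2 the 2D and EGFP libraries overlapped, from 28.7 to 39.5 CPM and from 45.2 to 76.0 CPM over the 6 libraries.

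Gene models that answered LPS had similar median responses with the 2 hairpins. By the mean response over both hairpins, 1194 gene models were higher with LPS (7.94%) and 1437 lower (9.56%). This list was chosen after seeing the data and from the same libraries as the interaction. Among the 1194 that rose, the median log2 response was 0.42 in shLuc and 0.43 in shIrf3, with a median interaction of -0.025 against -0.0042 over all gene models tested. For 969 of them (81.2%) the 95% interval of the interaction lay within 2-fold in either direction, and for 686 (57.5%) within 1.5-fold. Among the 1437 that fell, the medians were -0.30 in both shLuc and shIrf3, the median interaction was 0.00075, and 1318 (91.7%) had an interval within 2-fold. Over all tested, 77.8% had an interval within 2-fold and 59.7% within 1.5-fold. The median responses of both lists were themselves smaller than 1.5-fold. The loss of a response of that size would lie within both bounds, so such an interval does not show that the response was kept. At an unadjusted p under 0.05 there were 52 positive and 73 negative interactions among the 1194 (together 10.5%). Among the 1437 there were 68 and 44 (together 7.79%), against 5.85% over all tested. Both lists come from the same libraries and the same fit, so these shares are a description.

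**Figure D4:**
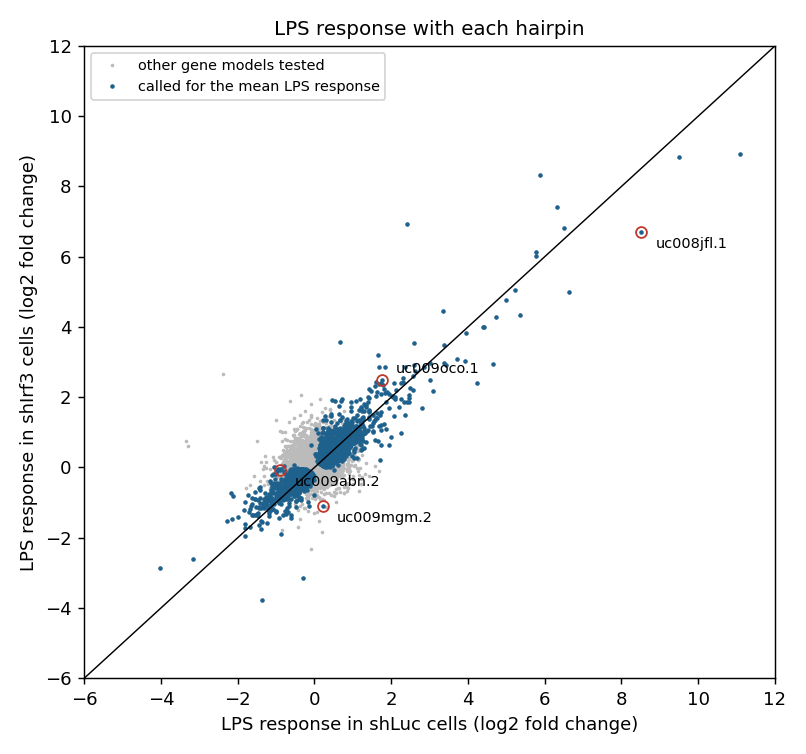
Log2 LPS response in shLuc cells (x axis) and in shIrf3 cells (y axis) of each gene model tested, in blue where the mean response was called and in grey otherwise, with the line of equal response and the 4 described gene models circled in red. The blue points follow the line, and uc008jfl.1 lies below it at 8.51 and 6.71.

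The strongest responders were measured less precisely. The 64 gene models raised at least 4-fold on average had a median level of 3.37 CPM and a median log2 response of 2.58 in shLuc and 2.86 in shIrf3. Their median interaction was -0.0097, with quartiles at -0.47 and 0.38. The median standard error of the interaction was 0.40, against 0.15 over all tested, and only 22 of the 64 (34.4%) had a 95% interval within 2-fold. In 8 of them some group held 3 counts or fewer, where the fitted fold depends on the prior count. Over the other 56 the medians were 2.49 in shLuc and 2.52 in shIrf3. For the 87 gene models lowered at least 2-fold, the median was -1.32 in shLuc and -1.15 in shIrf3, with a median interaction of 0.24 and 33 intervals (37.9%) within 2-fold. Of these 151 strong responders only uc008jfl.1 was called for the interaction, and for most of the rest the interval reached past 2-fold. At an unadjusted p under 0.05 there were 7 positive and 8 negative interactions among the 64 (together 23.4%). Among the 87 there were 6 and 3 (together 10.3%), against 5.85% over all tested. These shares too are a description.

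A call for LPS with only 1 hairpin did not come with a called interaction. LPS was called with both hairpins for 773 gene models, with the luciferase hairpin only for 557 and with the Irf3 hairpin only for 526. This fit takes the spread of a gene model as equal in all groups. With limma-voom and weights per group, LPS was called for 768 gene models in shLuc and for 3012 in shIrf3. The interaction was called for 1 of the 773, uc008jfl.1, and for 0 of the 557 and 0 of the 526 (edgeR). At an unadjusted p under 0.05 the numbers were 73 (9.44%), 148 (26.6%) and 128 (24.3%), against 5.85% over all tested. A group picked for passing a threshold with 1 hairpin and missing it with the other is selected for a difference, so these counts are a description.

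**Figure D5:**
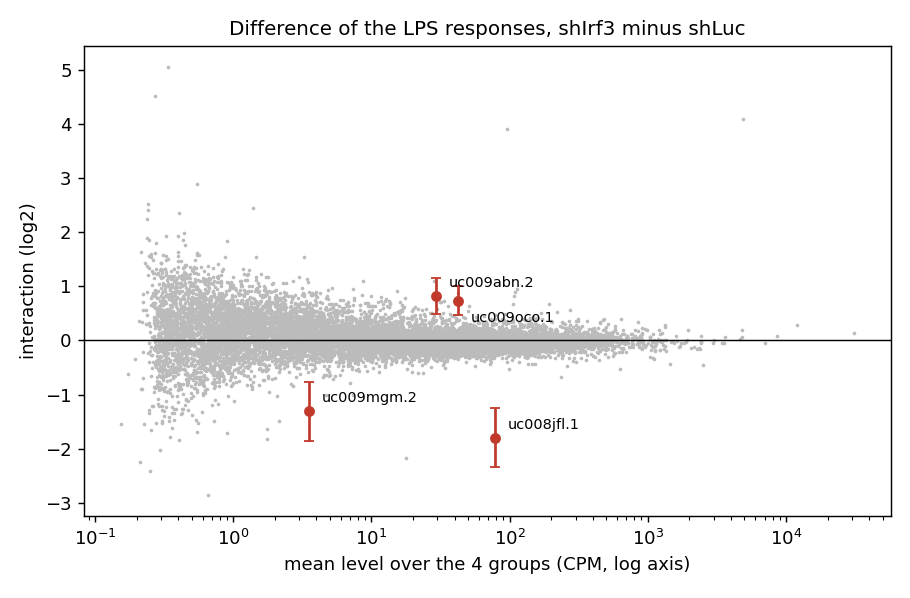
Interaction (y axis, log2) of each gene model tested against its mean level over the 4 groups (x axis, CPM, log axis), with the 4 described gene models in red and bars for their 95% intervals. The scatter widens towards low levels, and the 2 highest grey points above 5 CPM, at 3.90 and 4.08, are gene models set by shLuc replicate 1.

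The fitted interactions differed with the level of the gene model. Among the 10144 gene models with a mean of at least 5 CPM the median interaction was -0.026 with a median standard error of 0.12, and 97.7% of the 95% intervals lay within 2-fold. Only 7 of them had a fitted interaction of at least 2-fold. Of these 7, uc008jfl.1 was called and the other 6 had edgeR adjusted p from 0.413 to 0.950. The largest positive ones, of 4.08 and 3.90, were a 21-exon gene model on chromosome 9 and a 4-exon gene model on chromosome 16. They had 1285826 and 25754 counts in shLuc replicate 1, against at most 103446 and 2233 in any of the other 11 libraries. Without that library their interactions were -0.10 and -0.51.

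Among the 4892 gene models under 5 CPM the interaction leaned to the positive side. Its median was 0.15, with a median log2 LPS response of 0.026 in shLuc and 0.19 in shIrf3. At an unadjusted p under 0.05 there were 271 positive and 54 negative interactions in this class (together 6.64%). Among those with at least 5 CPM there were 222 and 332 (together 5.46%). Over all tested the share was 5.85%. The median under 5 CPM lay between 0.11 and 0.26 over all alternatives, with the largest value without shLuc replicates 1 and 2. The part of the shLuc libraries' spread and chromosome M share in this lean was not tested. Gene models that list exons on both strands, which can hold reads of overlapping genes, had a median interaction of -0.023 (n = 1342), and none of them was called.

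Neighbours of the described gene models were also examined, within 500 kb of each start. Around uc009oco.1, 10 other gene models were tested, of which 5 rose and 0 fell with LPS by the mean response, against 7.94% higher and 9.56% lower over all tested. Their interactions ran from -1.83 to 0.59, with 2 positive and 1 negative at an unadjusted p under 0.05 and none called (smallest edgeR adjusted p 0.456). Around uc008jfl.1, 28 were tested, of which 3 rose and 2 fell with LPS, and their interactions ran from -0.83 to 1.17, with a smallest edgeR adjusted p of 0.756. Around uc009mgm.2, 0 of 14 rose and 1 fell, with interactions from -0.35 to 0.16 and a smallest edgeR adjusted p of 0.804. Around uc009abn.2, 3 of 18 rose and 2 fell, with interactions from -1.34 to 0.24 and a smallest edgeR adjusted p of 0.772.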

How the data were processed

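The authors deposited whole-number read counts for each gene model, without normalization. Build mm9 and tools including featureCounts 1.4.6 and TopHat2 2.0.14 are listed, per the submitters' processing notes; their settings are not stated in the sources at hand. Per the labels' protocols, ribosomal RNA was depleted from 70 ng of total RNA and the libraries came from a kit that does not mark strand, so reads of overlapping genes cannot be told apart (1497 gene models list exons on both strands). The deposited column of exon length in bases serves as another descriptor.

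The 8 chromosome M gene models were left out, filterByExpr by group and TMM scaling applied, and the 12 libraries fitted together with 8 residual degrees of freedom before moderation (edgeR 4.0.16, R 4.3.3, glmQLFit with robust estimation; biological coefficient of variation 0.0895). Standard errors are |log2 fold change| over the root of the F statistic. CPM use TMM factors, and log2 CPM a prior count of 2. Alternatives used DESeq2 1.42.0, limma 3.58.1 and the settings of the closing section. All replicate pairs of the 12 libraries differed by more than sampling noise, with chi-square values per degree of freedom between 2.54 and 136.4 (gene models under 20 counts per pair excluded). In the simulated data, with the same spread in every group, 6 of 149 calls (4.03%) were of unchanged gene models.

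The contrast, the lists and the naming rule were chosen with earlier results of these data known. The rule takes per direction the called gene models with the largest interaction and at least 5 CPM in some group, the first 2 without a name table. The 14 gene lists and the markers need symbols and give no result.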

Additional observations from a re-analysis of the deposited data

Results flagged for a closer look

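The LPS response of uc008jfl.1 differed between the hairpins by the test of the difference itself, with an interaction of -1.80 on the log2 scale (edgeR adjusted p = 0.0439). It rests on 9 to 17 counts per shLuc library and 31 to 38 per shIrf3 library without LPS. The interaction was called in 7 of the 24 alternatives. With LPS, the difference between the hairpins was not called (edgeR adjusted p = 0.338). No group had enough libraries for a test of single outlying values.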

How the results depend on the processing

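For positive interactions, the count of 0 became 10 with DESeq2, 2 with no low-count filter and 28 without shLuc replicates 1 and 2, and ran from 0 to 12 when each library was left out in turn. For negative ones, the count of 1 became 5 with DESeq2, 44 without shLuc replicates 1 and 2, and 0 with limma-voom, limma-trend, a minimum of 1 CPM in 3 libraries, chromosome M kept, the replicate block and all 18 libraries in one fit, and ran from 0 to 10 with each library left out. With chromosome M kept, the adjusted p of uc008jfl.1 was 0.0513. LPS calls in shLuc, 1330, became 768 with limma-voom, 692 with all 18 libraries and 246 at a 2-fold minimum, and ran from 802 (without shLuc+LPS replicate 3) to 2097 (without shLuc replicate 2). Those in shIrf3, 1299, became 3012, 579 and 243, and 3145 without shLuc replicates 1 and 2, and ran from 707 (without shIrf3 replicate 1) to 2332 (without shLuc replicate 2). The causes were not tested. Same-numbered libraries of different groups showed little pairing. The correlations of their deviations ran from -0.023 to 0.10, over 0.1 in 1 of 18 pairs. They correlated best with their own number in 7. Whether same-numbered libraries shared a culture or day is not labelled, and 3 libraries per group cannot settle it. The replicate block gave 0 positive and 0 negative interactions. The 4 described gene models were picked for their interaction in the same libraries, so their signs in refits are a description. All 4 kept their sign in all 24 alternatives. Of these, edgeR or another tool called uc009oco.1 in 5, uc009abn.2 in 5 and uc009mgm.2 in 1 (DESeq2, adjusted p = 0.0217).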
